A study of Mus musculus with 35 samples.

Results

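Loss of Dot1l was compared between 2 stages of CD8 T cell life, the CD8 single positive cell of the thymus and the naive cell of the spleen, by asking for each gene whether the difference between KO and WT libraries was the same at both. This interaction is the KO minus WT difference in naive cells less the KO minus WT difference in thymus, on a log2 scale. It drew on 15 of the 35 libraries of the study, all those of the 4 groups concerned. All mice were C57BL/6 and carried the Cre transgene written Lcre+/-, the controls included. WT libraries came from Lcre+/-;Dot1Lwt/wt mice (3 from thymus, 4 from naive cells) and KO libraries from Lcre+/-;Dot1Lfl/fl mice (4 of each). Naive spleen cells were sorted as CD44- CD62L+, and thymic cells as CD8 single positive. The sources used here name neither the promoter that drives Cre, nor the floxed exons, nor the ages of the mice. They do not say whether each library is a different animal, and a p-value here reflects only the spread between these samples. Heterozygous (Het, Lcre+/-;Dot1Lfl/wt) libraries of both stages, 8 in all, served as a further comparison.

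DOT1L is the methyltransferase of lysine 79 in the core of histone H3, a mark found over the bodies of transcribed genes. A CD8 single positive thymocyte has passed selection on its T cell receptor, and some cells of that stage still divide. It then leaves for the spleen and lymph nodes and becomes a naive cell, which is quiescent until it meets antigen. Mature CD8 T cells take on memory features under the T-box factors EOMES and T-bet, and naive cells keep their state with factors such as TCF1 and LEF1.

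Total counts of the 15 libraries ran from 4809509 to 16228232, with a median of 10333714, and 10296 genes were tested. Dot1l itself stood at 61.1 to 70.4 CPM (read counts scaled to the library total) in WT and 74.9 to 78.8 in KO thymus libraries, and at 47.2 to 51.6 and 54.03 to 57.1 CPM in naive libraries. Its interaction was -0.04 ± 0.12 (log2 ± SE, adjusted p = 0.907, edgeR). A count over the whole gene does not check the deletion of floxed exons, so the directions given here are those of the libraries labelled KO. Of the CD8 T cell markers, Lck had group means of 896 to 997 CPM and Cd3e 213 to 303 CPM. Cd8a had means of only 8.23 to 11.3 CPM, Cd8b1 of 3.29 to 8.24 and Cd3d of 1.24 to 2.51, for reasons that were not found, and these counts are not read as levels. Cd4 was at most 0.131 CPM, which with those low counts unexplained is not read as an absence of CD4 T cells. Summed B cell markers reached 263 CPM in naive KO replicate 4 and 114 in naive WT replicate 4, against 7.96 to 48.7 CPM in the other 13 libraries. Summed effector genes reached 1198 CPM in naive KO replicate 3, against 584 to 708 in the other naive KO libraries. By Xist and Y-linked counts, 5 of the 15 libraries came from females, 2 of them among naive WT and 1 in each other group.

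The effect of Dot1l loss differed between the stages for 653 of 10296 genes, 6.34% (edgeR quasi-likelihood test, adjusted p under 0.05, n = 3 or 4 libraries a group). For 310 of them (3.01%) the KO minus WT difference was higher in naive cells than in thymus, and for 343 (3.33%) it was lower. The median size of a called interaction was 0.64 on the log2 scale, and 171 genes reached 2-fold, 99 higher and 72 lower. Within naive cells 1879 genes were called between KO and WT libraries (18.2%), 1147 higher (11.1%) and 732 lower (7.11%), and within thymus 1919 (18.6%), 1222 higher (11.9%) and 697 lower (6.77%). Without naive KO replicates 3 and 4 the interaction gave 446 genes. With libraries centred on the mean log level in place of TMM scaling, the median of all genes moved by -0.11 at each stage, and the split became 886 higher and 1612 lower in naive cells and 886 higher and 1342 lower in thymus, while the median interaction moved by only -0.01.

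Most genes with an interaction were called at a single stage. Of the 653, 246 were called in naive cells and not in thymus, and 270 in thymus and not in naive cells. A further 41 were called in the same direction at both stages with a larger size in naive cells, 21 in the same direction with a larger size in thymus, and 27 at neither stage. The other 48 were called at both stages with opposite signs, 30 of them higher in thymus and lower in naive KO libraries, and 18 the reverse. Among all 836 genes called at both stages, 788 had the same sign.

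**Figure D1:**
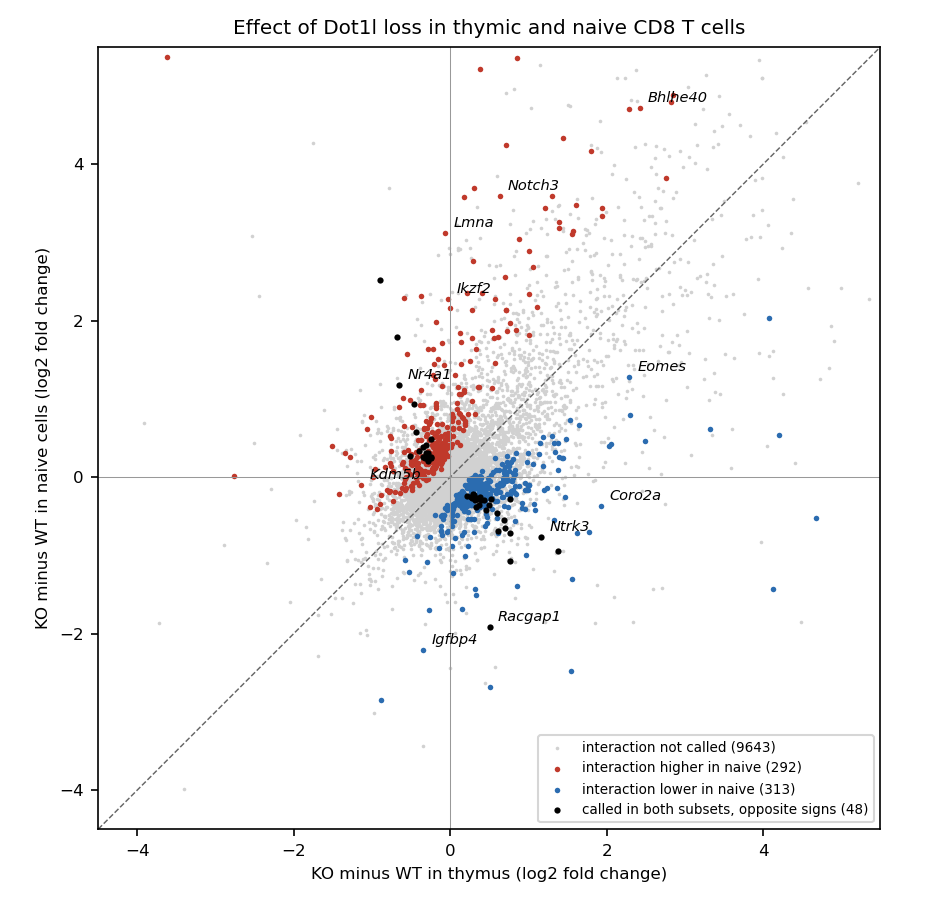
KO minus WT log2 fold change in thymus (horizontal axis) and in naive cells (vertical axis) for each tested gene, with 24 genes outside the axes. Genes called in the interaction are red (higher) or blue (lower), and the 48 genes in black, called at both stages with opposite signs lie in the upper left and lower right of the plot.

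Racgap1, which encodes a GTPase activating protein of the midzone of dividing cells, moved in opposite directions and had the lowest adjusted p among the named genes. It lies on chromosome 15 from 99620496 to 99651656 (GRCm38). Its level was 29.3, 35.6 and 27.6 CPM in the WT thymus libraries and 43.6, 49.6, 39.4 and 43.1 in KO thymus. Naive libraries stood at 30.5, 29.1, 35.1 and 35.5 CPM in WT and 8.02, 8.54, 9.35 and 8.78 in KO libraries. Every KO thymus library was above every WT one, and every KO naive library was far below every WT one. The change was 0.50 ± 0.11 in thymus and -1.92 ± 0.12 in naive cells, an interaction of -2.42 ± 0.17 (adjusted p = 7.99e-14, edgeR). From thymus to naive cells the level differed by 0.08 ± 0.12 in WT and by -2.34 ± 0.12 in KO libraries, a contrast in which 32.2% of genes were called in WT and 44.1% in KO libraries.

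Ntrk3, the gene of the neurotrophin receptor TrkC, showed the same form. It stood at 40.5 to 45.4 CPM in WT and 79.5 to 104 in KO thymus libraries, and at 43.1 to 51.1 CPM in WT naive cells. The KO naive libraries were at 30.6, 32.6, 15.5 and 33.1 CPM. Groups did not overlap at either stage, and naive KO replicate 3 was the lowest of all. The interaction was -1.93 ± 0.19 (thymus 1.17 ± 0.14, naive -0.77 ± 0.13). Pola1, the catalytic subunit of the polymerase that primes DNA synthesis, rose in thymus from a range of 138 to 180.1 CPM in WT to one of 235 to 300.03 in KO libraries. It fell in naive cells from a range of 53.9 to 60.7 CPM in WT to one of 43.01 to 51.6 in KO libraries, again without overlap. Its interaction was -1.04 ± 0.13 (adjusted p = 6.46e-07, edgeR).

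The reverse form, lower in KO thymus and higher in KO naive libraries, was found in Nr4a1, Kdm6b and Ralgds. Nr4a1 encodes NUR77, an immediate early nuclear receptor induced through the T cell receptor. It was at 35.2, 39.5 and 40.2 CPM in WT thymus and at 23.3, 28.5, 23.1 and 22.8 in KO thymus. The naive level was 8.01, 5.11, 6.53 and 4.40 CPM in WT and 13.4, 13.5, 14.4 and 11.7 in KO libraries. WT and KO values did not overlap at either stage. The difference between stages was -2.71 ± 0.19 in WT and -0.89 ± 0.17 in KO libraries, which gave an interaction of 1.83 ± 0.26 (thymus -0.65 ± 0.17, naive 1.18 ± 0.20). Kdm6b, a demethylase of lysine 27 of histone H3, was at 422 to 441 CPM in WT and 272 to 387 in KO thymus. Naive cells had 203 to 255 CPM in WT and 338 to 368 in KO libraries (interaction 1.01 ± 0.14). Ralgds, an exchange factor for the GTPase Ral, was at 16.6 to 20.1 CPM in WT and 12.4 to 15.01 in KO thymus, and at 17.1 to 19.8 in WT and 30.98 to 38.03 in KO naive libraries (interaction 1.40 ± 0.17). Both genes had separate WT and KO ranges at each stage.

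Several genes with the highest interaction were lower in naive than in thymic WT libraries and stood well above WT in the naive KO libraries. Lmna, which encodes the nuclear lamins A and C, stood at 6.39, 4.88 and 5.17 CPM in WT thymus and at 4.54, 3.24, 4.67 and 8.05 in KO thymus. In WT naive cells it was at 1.30, 1.53, 1.23 and 1.36 CPM, and in KO naive cells at 9.54, 11.3, 14.9 and 11.7. The thymic groups overlapped, and all KO naive libraries were above every other library of the 4 groups. The naive change was 3.12 ± 0.29 and the thymic value -0.06 ± 0.26, an interaction of 3.18 ± 0.40 (adjusted p = 8.13e-07, edgeR).

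Ikzf2 encodes the zinc finger factor Helios and lies on chromosome 1 from 69531214 to 69687245 (GRCm38). It was abundant in thymus, at 577, 764 and 703 CPM in WT and 643, 709.9, 673 and 644 in KO libraries. WT naive cells held 44.4, 53.8, 109 and 91.8 CPM, and KO naive cells 295, 417, 408 and 351. The thymic groups overlapped and the naive groups did not. From thymus to naive cells the level differed by -3.17 ± 0.24 in WT and by -0.86 ± 0.21 in KO libraries, an interaction of 2.31 ± 0.32 (adjusted p = 3.83e-05, edgeR).

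The highest interaction chosen was that of Adamtsl2, the gene of a matrix protein, at 3.43 ± 0.75 (thymus -0.90 ± 0.28, naive 2.52 ± 0.71). It rested on few reads in naive cells, with 5 counts over the 4 WT libraries, and its naive values overlapped (0 to 0.379 CPM in WT, 0.323 to 1.49 in KO). Notch3, the gene of a Notch receptor of thymocytes, was at 9.92 to 16.85 CPM in WT and 18.6 to 21.1 in KO thymus. It had 8 counts in all in WT naive cells and 1.52 to 4.27 CPM in KO naive libraries (interaction 2.96 ± 0.63, and 5.11 without naive WT replicate 3). Plxnd1, the gene of a semaphorin receptor that guides thymocyte migration, was at 16.1 to 20.7 CPM in WT and 10.1 to 13.1 in KO thymus. Among naive libraries it was at 0.511 to 1.36 CPM in WT and 1.86 to 4.06 in KO libraries, so that KO values lay below WT in thymus and above WT in naive cells (interaction 2.47 ± 0.44). Jup, the gene of plakoglobin, differed from thymus to naive cells by -3.30 ± 0.21 in WT and -1.15 ± 0.16 in KO libraries (interaction 2.14 ± 0.27). Plxdc1, a membrane protein gene, had an interaction of 2.47 ± 0.58.

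A second set among the highest rose at both stages, and by more in naive cells. Bhlhe40, the gene of a basic helix-loop-helix repressor of effector and resident memory cells, was at 4.13, 4.01 and 5.09 CPM in WT thymus and 25.3, 27.7, 20.9 and 20.97 in KO thymus. Naive spleen libraries were at 0, 1.02, 0.568 and 0.523 CPM in WT and at 12.4, 10.95, 26.4 and 12.8 in KO libraries. No groups overlapped at either stage, and naive KO replicate 3 was the highest naive library. The change was 2.42 ± 0.23 in thymus and 4.72 ± 0.31 in naive cells (interaction 2.29 ± 0.44), with 19 counts in all behind the WT naive level. Atp8a2, a lipid flippase gene, rose in thymus from a range of 13.7 to 18.4 CPM to one of 24.5 to 33.1 CPM. In naive cells it rose from a range of 4.76 to 6.25 CPM to one of 41.6 to 50.2 CPM, so that the level was higher in naive cells than in thymus for KO libraries and lower for WT libraries (interaction 2.16 ± 0.18, adjusted p = 1.35e-11, edgeR). Fnbp1l, the gene of an adaptor of actin assembly, had an interaction of 2.38 ± 0.48, and Dgkg, a diacylglycerol kinase gene, one of 2.23 ± 0.51. Kalrn, the gene of a guanine nucleotide exchange factor, was at 2.42 ± 0.72, and leaving out any 1 of 7 libraries ended its call (adjusted p 0.0537 to 0.2998, edgeR).

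**Figure D2:**
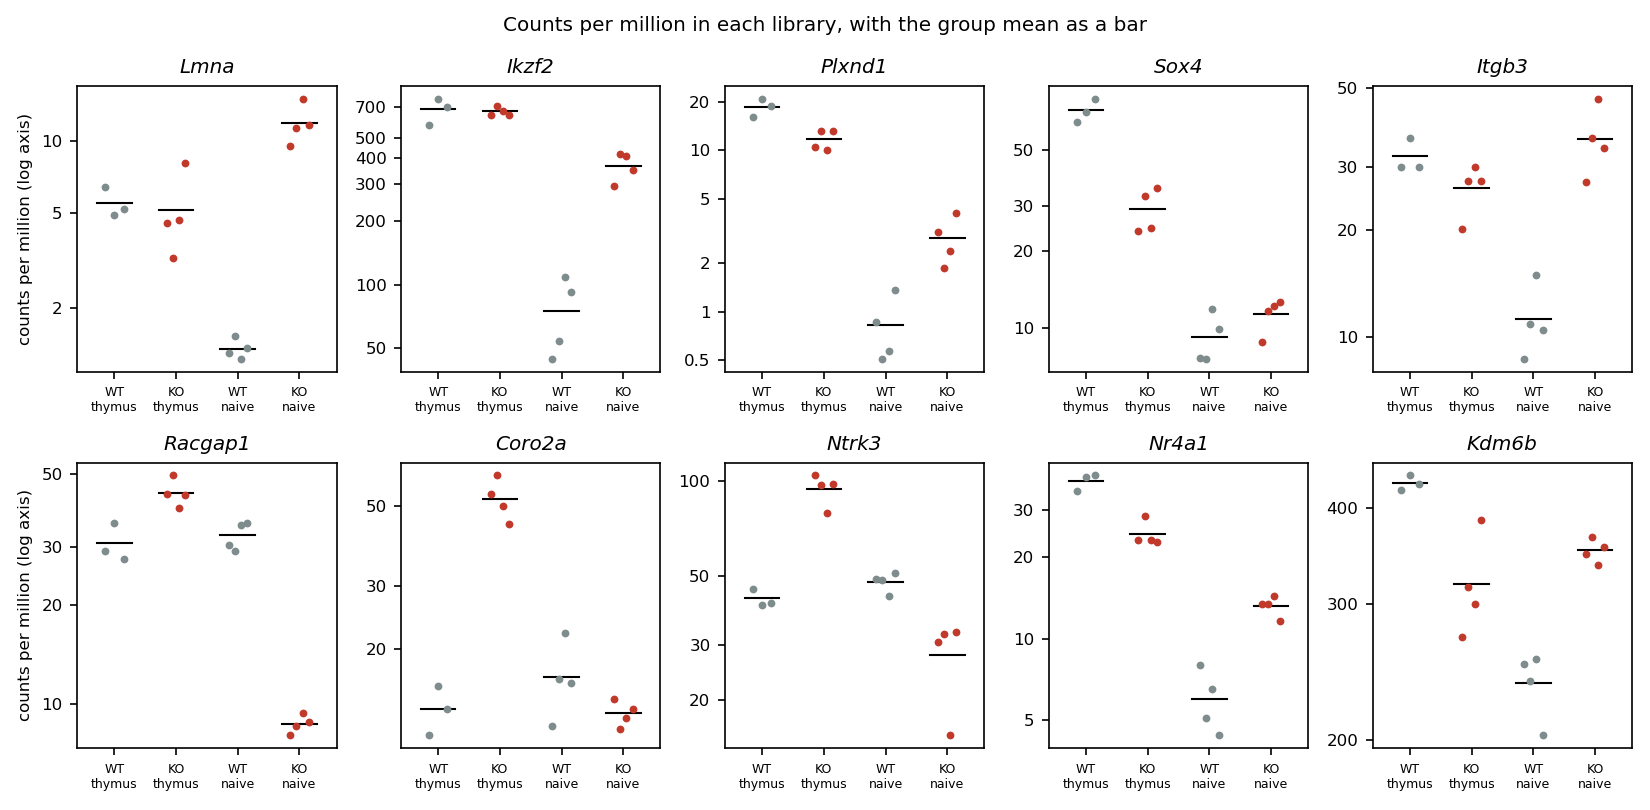
CPM in each library (log axis) for 10 genes with an interaction, WT in grey and KO in red, with the group mean as a bar. Lmna, Ikzf2, Plxnd1 and Itgb3 are higher in naive KO than in naive WT libraries, and Racgap1, Ntrk3, Nr4a1 and Kdm6b change in opposite directions at the 2 stages.

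The start regions of the 2 highest and the 2 lowest of these genes with an entry in the RefSeq promoter table (GRCm38.p6) are shown because they stand at the ends of the interaction among the genes chosen by size, which had to reach an average log2 CPM of 1. Each runs from 250 bases before the transcription start to 50 after it, 5′ to 3′ on the gene's strand, with the first transcribed base in capitals.
Adamtsl2, chr2:27079129-27079428, plus strand: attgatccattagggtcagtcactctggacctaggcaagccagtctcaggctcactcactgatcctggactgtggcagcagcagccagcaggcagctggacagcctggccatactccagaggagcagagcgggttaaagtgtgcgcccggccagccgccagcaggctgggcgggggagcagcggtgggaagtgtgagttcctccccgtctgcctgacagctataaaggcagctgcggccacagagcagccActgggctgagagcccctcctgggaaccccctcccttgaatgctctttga
Lmna, chr3:88503303-88503602, minus strand: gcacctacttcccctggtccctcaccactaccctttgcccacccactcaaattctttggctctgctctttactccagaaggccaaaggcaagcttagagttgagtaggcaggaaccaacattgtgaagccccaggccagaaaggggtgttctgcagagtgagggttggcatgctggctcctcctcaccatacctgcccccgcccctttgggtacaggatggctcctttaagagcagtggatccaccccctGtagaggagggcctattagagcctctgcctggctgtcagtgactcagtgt
Racgap1, chr15:99651607-99651906, minus strand: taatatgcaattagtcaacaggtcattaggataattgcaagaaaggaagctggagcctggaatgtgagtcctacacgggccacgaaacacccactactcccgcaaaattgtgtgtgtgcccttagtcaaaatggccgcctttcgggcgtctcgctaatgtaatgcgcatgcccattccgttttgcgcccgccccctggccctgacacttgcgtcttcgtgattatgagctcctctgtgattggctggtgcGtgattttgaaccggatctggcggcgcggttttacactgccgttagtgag
Coro2a, chr4:46601880-46602179, minus strand: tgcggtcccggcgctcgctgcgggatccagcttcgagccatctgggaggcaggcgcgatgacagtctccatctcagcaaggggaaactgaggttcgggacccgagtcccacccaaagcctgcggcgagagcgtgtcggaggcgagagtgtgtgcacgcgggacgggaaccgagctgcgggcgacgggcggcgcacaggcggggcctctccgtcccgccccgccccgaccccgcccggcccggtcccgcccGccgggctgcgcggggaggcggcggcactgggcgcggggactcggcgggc
Lmna and Coro2a have 2 entries each, of which the first is shown. Each sequence was searched on both strands for a T-box site (AGGTGTGA), a TCF and LEF core (CTTTGAA), an E-box (CAGGTG) and a RUNX core (TGTGGT), and none of the 4 windows held any of them. Of all 32851 promoters in the table, 1.28% held the T-box site, 5.14% the TCF and LEF core, 20.2% the E-box and 16.8% the RUNX core. The absence of a match says only that these letters are not in these windows. GC content was 62.3% for Adamtsl2, 56.3% for Lmna, 52.3% for Racgap1 and 76.0% for Coro2a, against a median of 52.7% over the table.

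Among the genes with the lowest interaction, some rose in KO thymus with no call in naive cells. Coro2a, the gene of an actin-binding coronin, was at 11.5, 15.7 and 13.5 CPM in WT and 53.98, 60.9, 49.97 and 44.6 in KO thymus. Naive libraries were at 12.1 to 22.2 CPM in WT and 11.9 to 14.4 in KO. The KO thymus libraries stood above all 11 others, and the naive groups overlapped (thymus 1.93 ± 0.20, naive -0.37 ± 0.20, interaction -2.29 ± 0.28). Alcam, the gene of an adhesion ligand of CD6, rose by 2.49 ± 0.39 in thymus and was at 0.47 ± 0.34 in naive cells. Its interaction of -2.02 ± 0.52 lost its call without thymic WT replicate 2 (adjusted p = 0.0582) or naive WT replicate 4 (adjusted p = 0.0871, edgeR).

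A further set fell in naive KO cells. Igfbp4, the gene of a binding protein of insulin-like growth factors, was at 45.2 to 55.2 CPM in WT and 29.998 to 47.4 in KO thymus. Values in naive cells were 85.1, 69.2, 72.7 and 79.7 CPM in WT and 18.5, 17.7, 9.14 and 20.1 in KO libraries. The thymic groups overlapped, the naive ones did not, and naive KO replicate 3 was the lowest (interaction -1.87 ± 0.31). Slc35g1, a membrane transporter gene, fell at both stages, by 0.88 ± 0.22 in thymus and by 2.85 ± 0.23 in naive cells. Stx1a, the gene of syntaxin 1A, fell by 0.89 ± 0.09 in naive cells and was at 0.23 ± 0.10 in thymus (interaction -1.11 ± 0.13). Cdkn2c, the gene of an inhibitor of the kinases CDK4 and CDK6, fell by 1.44 ± 0.36 in naive cells and was at 0.31 ± 0.25 in thymus. Zwilch, a kinetochore gene, and Ryr3, a calcium release channel gene, were called at both stages with opposite signs (interaction -1.84 ± 0.47 and -2.33 ± 0.50).

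In Sidt1 and Atxn1, among the lowest adjusted p-values, the KO libraries were higher at both stages and by more in thymus. Sidt1, the gene of a transmembrane transporter of double-stranded RNA, was at 62.2 to 68.6 CPM in WT and 149.8 to 186 in KO thymus. Naive libraries stood at 446 to 526 CPM in WT and 554 to 575 in KO libraries (interaction -1.13 ± 0.12). Atxn1, the gene of the transcriptional corepressor ataxin 1, was at 4.36 to 5.61 CPM in WT and 21.1 to 27.7 in KO thymus, and at 26.7 to 36.8 in WT and 52.6 to 54.9 in KO naive libraries (interaction -1.51 ± 0.19). WT and KO values overlapped at neither stage in either gene. KO thymus libraries of Sidt1 lay between those of WT thymus and WT naive cells, whereas for Atxn1 the KO thymus range overlapped that of WT naive cells.

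Genes of DNA replication rose in KO thymus for most members and were seldom called in naive cells. Of 25 tested members, 21 were called higher in thymus, against 2 higher and 1 lower in naive cells, and 9 were called in the interaction, all lower. The median interaction of the list was -0.56, against -0.00 over all tested genes, 6.34% of which were called. Of all tested genes 11.9% were higher in thymus, and 11.1% were higher and 7.11% lower in naive cells. Summed over the list, the level was 1427 to 1752 CPM in WT and 2391 to 2884 in KO thymus, and 547 to 565 in WT and 551 to 616 in KO naive libraries. The thymic ranges were separate and the naive ranges overlapped. Mcm6, the gene of a subunit of the replicative helicase, was at 142 to 163 CPM in WT and 228 to 277 in KO thymus, against 60.2 to 69.96 and 65.8 to 76.8 in naive cells (interaction -0.57 ± 0.12). Its partner Mcm4 rose in thymus by 0.62 ± 0.08 and was at 0.09 ± 0.08 in naive cells. Rfc4, the gene of a subunit of the clamp loader, rose by 0.77 ± 0.14 in thymus and was at -0.23 ± 0.16 in naive cells (adjusted p of the interaction 0.00205, edgeR).

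Mitosis genes were called higher in thymus for 16 of 23 members, against 1 higher and 2 lower in naive cells. The shares of all tested genes were 11.9% higher in thymus, and 11.1% higher and 7.11% lower in naive cells. In the interaction 3 were called, all lower, against 3.33% of all tested genes. They were Racgap1, Kif23 and Ect2, which act in cytokinesis. Kif23, the kinesin partner of RACGAP1 at the midzone, was at 71.9, 92.003 and 88.998 CPM in WT and 87.6, 103, 81.8 and 104 in KO thymus. The naive level was 42.01, 40.5, 32.6 and 37.8 CPM in WT and 10.5, 17.4, 8.49 and 11.1 in KO libraries. The thymic groups overlapped and the naive groups lay far apart (interaction -1.84 ± 0.28). Ect2, the gene of an exchange factor for RhoA, rose in thymus (0.996 ± 0.19) and was at -0.11 ± 0.25 in naive cells. Its interaction of -1.11 ± 0.32 lost its call without thymic WT replicate 1, naive WT replicate 4 or naive KO replicate 2 (adjusted p 0.0597 to 0.0853, edgeR). The summed mitosis genes were at 775 to 1187 CPM in WT and 1581 to 1995 in KO thymus, and at 105 to 144 in WT and 57.5 to 84.5 in KO naive libraries. Yet 16 of the 23 tested members had a naive change above 0, with a list median of 0.59. The lower naive sum therefore does not describe most members, and abundant genes such as Kif23 weigh most in it. Markers of double positive thymocytes, the stage before, summed to 38.6 to 43.0 CPM in WT and 47.0 to 60.0 in KO thymus, and to 14.5 to 22.2 in WT and 21.3 to 26.3 in KO naive libraries. Of these markers 0 of 7 tested were called in the interaction (edgeR, 2 at an unadjusted p under 0.05, 0 with DESeq2). Over all tested genes the share was 6.34%, so 7 genes are too few to show an equal response. In bulk samples more cells of a kind and more RNA per cell cannot be told apart, and the part of dividing or immature cells in these results was not tested.

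Genes of MYC and ribosome biogenesis were called higher only in thymus and lower only in naive cells. Of 22 tested members, 4 were higher in thymus and 6 lower in naive cells, and with mean log centring these counts became 1 and 15. Of all 10296 tested genes 11.9% were higher in thymus and 7.11% lower in naive cells, or 886 and 1612 genes with that centring. In the interaction 9 were called, all lower (median -0.38), and 9 with that centring too. The share of all tested genes lower in the interaction was 3.33%, or 333 genes with that centring. The summed level was 2460 to 2740 CPM in WT and 3043 to 3127 in KO thymus, and 2599 to 2797 in WT and 2248 to 2514 in KO naive libraries, without overlap at either stage. Nop58, the gene of a core protein of small nucleolar particles, was at 164 to 183 CPM in WT and 231 to 265 in KO thymus, and at 143 to 163 in WT and 118 to 139 in KO naive libraries. Its change was 0.46 ± 0.09 in thymus, its naive value -0.20 ± 0.08 (adjusted p = 0.0924), and its interaction -0.66 ± 0.12 (adjusted p = 4.15e-04, edgeR). Rrp12, a ribosome assembly gene, fell in naive cells (-0.35 ± 0.09) and was at 0.26 ± 0.10 in thymus. Nop56 and Dkc1, a further pair of nucleolar particle genes, had interactions of -0.41 ± 0.10 and -0.45 ± 0.12.

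Of 18 heat shock and chaperone genes, 10 were higher and 1 lower in KO thymus, against 11.9% and 6.77% of all tested genes. In naive cells 0 were called, against 18.2% of all tested genes. With mean log centring 4 were lower there, as were 1612 of all 10296 tested genes. The interaction was lower for 5, and for 3.33% of all tested genes. Hspd1, the gene of the mitochondrial chaperonin, rose in thymus from a range of 143 to 157 CPM to one of 209.8 to 281 CPM and was at 0.15 ± 0.10 in naive cells (interaction -0.61 ± 0.14). Its partner Hspe1 and the mitochondrial HSP70 gene Hspa9 had interactions of -0.68 ± 0.14 and -0.50 ± 0.11. Without thymic WT replicate 2 the count was 3 in place of 5. Tcp1, a subunit of the cytosolic chaperonin, lost its call without that library (adjusted p = 0.0573) or without thymic WT replicate 1 (adjusted p = 0.0513, edgeR).

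**Figure D3:**
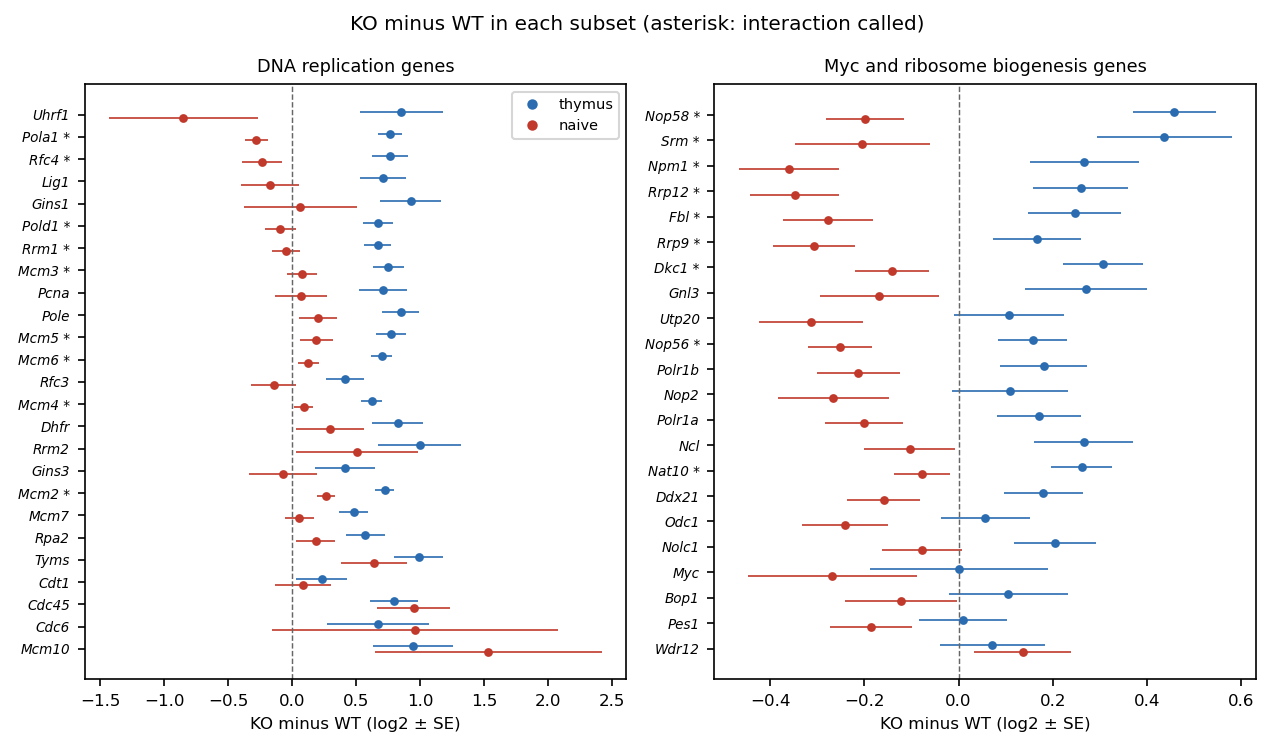
KO minus WT log2 fold change (± SE) in thymus and in naive cells for the tested genes of DNA replication and of MYC and ribosome biogenesis, ordered by the interaction. With TMM scaling all 25 replication genes and all 22 ribosome biogenesis genes lie right of 0 in thymus (blue), while 17 and 1 of them do in naive cells (red). With mean log centring the thymic counts are 25 and 17 and the naive counts 11 and 1.

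Genes of immature thymocytes gave 5 of 15 tested members in the interaction, all higher. In thymus 3 were higher and 5 lower, and in naive cells 4 higher and 2 lower. Of all tested genes 3.01% were higher in the interaction. Within thymus 11.9% of them were higher and 6.77% lower, and within naive cells 11.1% and 7.11%. Sox4, a transcription factor gene of thymocytes, was at 64.6, 70.7 and 79.4 CPM in WT and 23.96, 33.1, 24.6 and 35.5 in KO thymus. Naive cells had 7.54 to 11.8 CPM in WT and 8.78 to 12.6 in KO libraries. The thymic groups lay apart and the naive groups overlapped (thymus -1.28 ± 0.20, naive 0.26 ± 0.23, interaction 1.54 ± 0.30). Itm2a, a membrane protein gene of selected thymocytes, rose in naive cells from a range of 7.41 to 13.4 CPM to one of 16.8 to 29.5 CPM and was at -0.39 ± 0.15 in thymus (interaction 1.32 ± 0.22). Bcl6, the gene of a transcriptional repressor, rose in naive cells by 0.62 ± 0.13 and was at -0.33 ± 0.14 in thymus. Plxnd1, described above, belongs to this list too.

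Immediate early and activation genes gave 3 of 24 members in the interaction, all higher, and 5 with DESeq2. In thymus 1 was higher and 7 lower, and in naive cells 6 were higher and 0 lower, or 5 and 3 with mean log centring. Of all 10296 tested genes 3.01% were higher in the interaction. In thymus 11.9% of them were higher and 6.77% lower, and in naive cells 11.1% and 7.11%, or 886 and 1612 genes with that centring. Beside Nr4a1 the 3 were Nfkbia and Tnfaip3, which encode IκBα and A20, feedback inhibitors of NF-κB. Nfkbia was at 367 to 374 CPM in WT and 258 to 265 in KO thymus, and at 307 to 354 in WT and 347 to 462 in KO naive libraries, where the groups overlapped. Its change was -0.51 ± 0.09 in thymus and 0.27 ± 0.09 in naive cells (interaction 0.78 ± 0.13). Tnfaip3 rose in naive cells by 0.57 ± 0.13 and was at -0.23 ± 0.14 in thymus. Of 35 genes of T cell receptor signalling, 1 was called in the interaction, against 6.34% of all tested genes. It was Cbl, which encodes a ubiquitin ligase that restrains the receptor (0.34 ± 0.09). Within a stage, 0 were higher and 11 lower in KO thymus, and 1 was higher and 9 lower in naive KO libraries. With mean log centring, 20 were lower in thymus and 11 in naive cells. Over all 10296 tested genes 6.77% were lower in thymus and 7.11% in naive cells with TMM scaling. With mean log centring 1342 genes were lower in thymus and 1612 in naive cells.

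Genes of naive cells and quiescence gave 7 higher and 1 lower of 24 members in the interaction, and 4 higher and 1 lower without naive KO replicates 3 and 4. Most calls within a stage were lower, with 1 higher and 10 lower in KO thymus, and 3 higher and 8 lower in naive cells. Of all tested genes 3.01% were higher and 3.33% lower in the interaction. These shares were 11.9% and 6.77% in thymus, and 11.1% and 7.11% in naive cells. The summed level was 8349 to 9097 CPM in WT and 6038 to 6273 in KO thymus. In naive cells it was 8619 to 9567 CPM in WT and 7479 to 8176 in KO libraries, again without overlap. Satb1, the gene of a chromatin organiser of thymocytes, was at 2870 to 3221 CPM in WT and 1590 to 1678 in KO thymus. Among naive libraries it was at 1982 to 2356 CPM in WT and 1688 to 1734 in KO libraries. KO libraries were below WT at both stages without overlap, by 0.90 ± 0.06 in thymus and 0.34 ± 0.05 in naive cells (interaction 0.57 ± 0.08, adjusted p = 7.57e-06, edgeR). Tcf7, the gene of TCF1, rose in naive cells from a range of 750.1 to 902 CPM to one of 937 to 1049 CPM and was at -0.09 ± 0.07 in thymus (interaction 0.41 ± 0.09). Foxo3, a forkhead factor gene of quiescence, fell in thymus by 0.41 ± 0.07 and was at 0.04 ± 0.07 in naive cells. Lef1 fell at both stages, by 0.62 ± 0.08 and 0.72 ± 0.07, and its interaction of -0.10 ± 0.10 did not pass the test (adjusted p = 0.684, edgeR). The homing receptor gene Ccr7 had an interaction of -0.23 ± 0.13 (adjusted p = 0.368, edgeR).

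Interferon stimulated genes were called mainly in naive cells. Of 20 tested members, 8 were higher and 1 lower in naive KO libraries, against 1 higher and 0 lower in thymus. In the interaction 3 were called, all higher, with a list median of 0.65. Among all tested genes 11.1% were higher and 7.11% lower in naive cells, 11.9% and 6.77% in thymus, and 3.01% were higher in the interaction. Rsad2, which encodes the antiviral enzyme viperin, was at 10.1 to 13.4 CPM in WT and 12.7 to 15.4 in KO thymus. Naive spleen libraries were at 1.52, 2.43, 1.89 and 0.837 CPM in WT and 9.20, 8.43, 7.53 and 4.47 in KO libraries. The thymic groups overlapped and the naive groups did not (naive 2.14 ± 0.33, thymus 0.28 ± 0.26, interaction 1.87 ± 0.42). Irf9, the DNA-binding subunit of the interferon response complex, was at 53.8 to 60.1 CPM in WT and 67.9 to 74.9 in KO naive libraries, and at 81.5 to 89.3 and 68.8 to 77.6 in thymus (interaction 0.53 ± 0.12). Oasl1, the other call, was at 1.66 ± 0.52 and lost it when any 1 of 12 libraries was left out (adjusted p 0.0503 to 0.147, edgeR). Without naive KO replicate 4, the library with the most B cell transcripts, 6 members were called, and the part of those transcripts was not tested.

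Of the effector genes, 11 of 15 tested members were higher in naive and 9 in thymic KO libraries, with 0 lower at either stage. The shares of all tested genes were 11.1% and 11.9% higher, and 7.11% and 6.77% lower. In the interaction 0 were called (edgeR, 1 at an unadjusted p under 0.05, 0 with DESeq2), against 6.34% of all tested genes. In a list this short, a count of 0 does not show an equal response at both stages. Tbx21, the gene of T-bet, was at 1.74 to 3.46 CPM in WT and 14.7 to 19.4 in KO thymus. Values in naive cells were 12.99, 11.5, 23.3 and 15.1 CPM in WT and 68.96, 47.3, 126 and 58.3 in KO libraries. KO values were above WT at both stages, and naive KO replicate 3 was the highest. The changes were 2.85 ± 0.40 and 2.22 ± 0.26, and their difference of -0.64 ± 0.50 did not pass the test (adjusted p = 0.545, edgeR). Eomes was at 6.63 to 11.3 CPM in WT and 38.3 to 54.9 in KO thymus, and at 45.5 to 66.8 in WT and 116 to 181 in KO naive libraries. It rose by 2.29 ± 0.21 in thymus and by 1.28 ± 0.17 in naive cells. Its interaction of -1.01 ± 0.27 (adjusted p = 0.0190) was lost without thymic WT replicate 2 (-0.76, adjusted p = 0.125, edgeR). The call was also lost in a fit of only the compared libraries. Cd44 and Il2rb, genes of memory cells, had interactions of 0.79 ± 0.45 and 0.63 ± 0.29 (adjusted p = 0.352 and 0.225, edgeR). Zbtb16, the gene of PLZF in innate-like T cells, had 3 counts in all in WT naive cells, and the chemokine receptor gene Cxcr3 1 in WT thymus, so no fold is given (adjusted p = 0.295 and 0.154, edgeR).

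The memory and tissue residency genes gave 4 higher and 2 lower of 18 members in the interaction, and 3 in all without thymic WT replicate 1. Of all tested genes 3.01% were higher and 3.33% lower. Cxcr6, a chemokine receptor gene of resident cells, was called with opposite signs, at 14.9 to 22.6 CPM in WT and 25.3 to 32.2 in KO thymus. Naive libraries stood at 33.3 to 47.4 CPM in WT and 19.2 to 29.5 in KO libraries, without overlap (interaction -1.30 ± 0.23). Itgal, the gene of the LFA-1 integrin chain, had an interaction of 0.59 ± 0.14 that lost its call without thymic WT replicate 1 (0.46, adjusted p = 0.0505, edgeR). Integrin and adhesion genes gave 4 higher and 1 lower of 19, against 3.01% and 3.33% of all tested genes, and 3 in all without thymic WT replicate 1. Itgb3, the integrin β3 gene, was at 30.1 to 36.3 CPM in WT and 20.1 to 29.9 in KO thymus. The naive level was 8.66, 10.9, 14.9 and 10.5 CPM in WT and 27.3, 36.3, 46.7 and 33.9 in KO libraries. WT libraries were above KO libraries in thymus and below them in naive cells, and groups overlapped at neither stage (interaction 1.93 ± 0.21). Nrp1, the gene of the semaphorin receptor neuropilin 1, rose in thymus by 2.85 ± 0.22 and in naive cells by 4.89 ± 0.23, from 34 counts in WT naive cells (interaction 2.05 ± 0.35). Itga6, the integrin α6 gene, fell in naive cells from a range of 65.3 to 84.01 CPM to one of 28.6 to 39.7 CPM (interaction -0.80 ± 0.16).

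**Figure D4:**
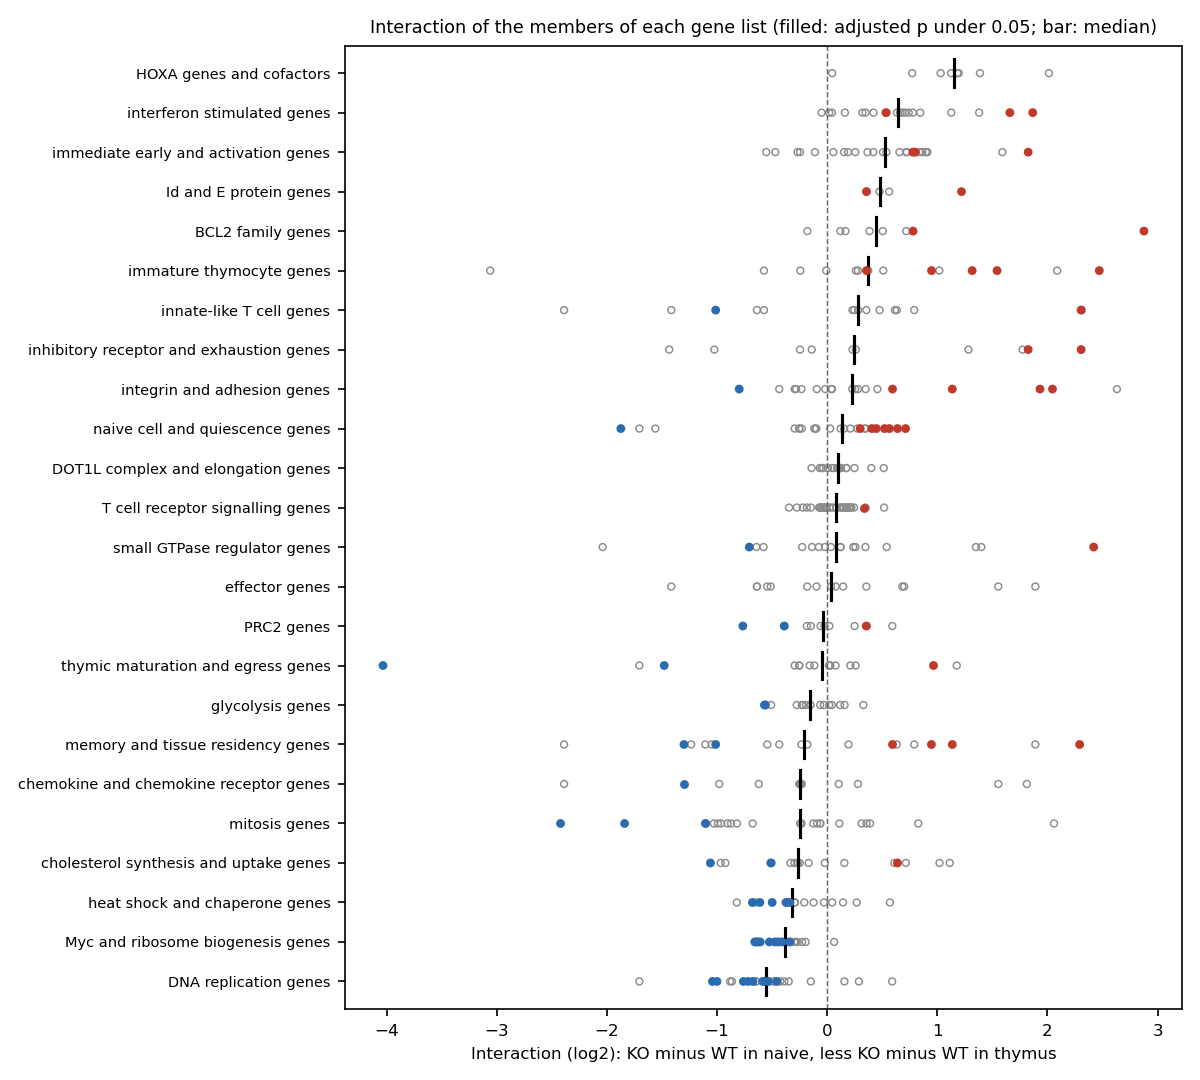
Interaction (log2) of each tested member of the gene lists, ordered by the list median (bar), with called members filled red (higher) or blue (lower). Replication, ribosome biogenesis and chaperone lists have called members only below 0, and interferon, activation and immature thymocyte lists only above 0, under TMM, RLE and mean log scaling alike.

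Among chromatin genes, the 18 tested members of the DOT1L complex and elongation list had 0 calls in the interaction (edgeR, 1 at an unadjusted p under 0.05, 0 with DESeq2). Over all tested genes the share was 6.34%, so 0 calls in a short list do not show an equal response at both stages. The 8 tested HOXA genes and cofactors, known for their response to DOT1L in leukaemia, also had 0 calls (edgeR, 1 at an unadjusted p under 0.05, 0 with DESeq2). Their values were all above 0, with a list median of 1.15, and 3 members were called higher in naive cells and 1 in thymus. Of all tested genes 11.1% were called higher in naive cells and 11.9% in thymus, and the 1 thymic call is near that share. These values rest on few reads. All 13 genes of the list together summed to 4.26 to 10.2 CPM in WT and 10.6 to 17.2 in KO naive libraries. In thymus the sums were 7.67 to 15.3 CPM in WT and 12.8 to 19.2 in KO libraries. One of the 8, the cofactor gene Meis1, had 0 counts in WT libraries of both stages, so its fitted value is no measure of size. Of the 12 genes of Polycomb repressive complex 2, which methylates lysine 27 of histone H3, 1 was called higher and 2 lower. The shares of all tested genes were 3.01% and 3.33%. Ezh2, the gene of the catalytic subunit of this complex, was at 203 to 247 CPM in WT and 249 to 290.02 in KO thymus. Naive cells had 51.5, 56.9, 72.4 and 84.9 CPM in WT and 41.8, 47.6, 46.9 and 48.7 in KO libraries. It fell in naive cells (-0.54 ± 0.12) and was at 0.23 ± 0.12 in thymus (interaction -0.76 ± 0.17). Rbbp7, the gene of a histone-binding subunit, rose in thymus (0.28 ± 0.06) and was at -0.11 ± 0.06 in naive cells. Jarid2, the gene of an accessory subunit, fell in thymus (-0.49 ± 0.07), and its interaction of 0.36 ± 0.10 was lost when any 1 of 5 libraries was left out (adjusted p 0.0502 to 0.0605, edgeR). Kdm5b, a demethylase gene for lysine 4 of histone H3, was at 195 to 216 CPM in WT and 74.4 to 110.4 in KO thymus, but at 127 to 156 in WT and 126 to 141 in KO naive libraries, where the groups overlapped (interaction 1.04 ± 0.13, adjusted p = 9.59e-07, edgeR).

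The next lists are short, and of all tested genes 3.01% were higher and 3.33% lower in the interaction. Their calls are given by gene and not read as a result about a list. Of 5 Id and E protein genes, 2 were higher, Tcf4 (1.22 ± 0.27) and Tcf12 (0.36 ± 0.08). Tcf4 was at 10.99 to 20.4 CPM in WT and 50.6 to 63.2 in KO naive libraries and at 32.3 to 39.7 and 48.2 to 54.9 in thymus. The calls among 19 cholesterol genes included the exporter gene Abcg1, which was higher (0.64 ± 0.14), and the regulator gene Srebf2, which was lower (-0.51 ± 0.12). Of 15 glycolysis genes, Pgk1 (-0.56 ± 0.10) and Tpi1 (-0.57 ± 0.16) were lower, Tpi1 not when any 1 of 6 libraries was left out. Of 16 genes of thymic maturation and egress, the lymphocyte GTPase gene Gimap6 was higher (0.97 ± 0.19), and Cd55, a complement regulator gene (-1.48 ± 0.32), and Ms4a4c, with 3 counts in all in WT thymus, were lower. The call of Ms4a4c ended with DESeq2, and when any 1 of 11 libraries was left out (adjusted p 0.0509 to 0.107, edgeR). Of 18 small GTPase regulators, Kalrn was higher and Dock5 lower (-0.71 ± 0.19, lost when any 1 of 4 libraries was left out). With 1 library left out this list held 0 to 3 calls. Of 5 CD4 T cell markers, Ikzf2 and Gata3 were higher, Gata3 by 0.51 ± 0.13 and not called without thymic WT replicate 3 (0.42, adjusted p = 0.0771, edgeR). Of 8 BCL2 family genes, the proapoptotic Bmf (2.88 ± 0.76, with 7 counts in WT naive cells) and Bcl2l11 (0.78 ± 0.23) were higher. Bmf lost its call without naive KO replicate 1 (adjusted p = 0.0529, edgeR), and Bcl2l11 when any 1 of 7 libraries was left out (adjusted p 0.0511 to 0.228, edgeR).

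Heterozygous libraries gave no interaction that passed the test. In the same difference between stages taken from Het minus WT, 0 genes were called (edgeR, 419 at an unadjusted p under 0.05, 0 with DESeq2). With Het in place of WT libraries as the control, 496 genes were called for KO (4.82%), 223 higher (2.17%) and 273 lower (2.65%), a comparison that shares the KO libraries with the one above. Racgap1 had -2.28 ± 0.16 against Het libraries, whose means were 36.6 CPM in thymus and 34.96 in naive cells. Ikzf2 had 2.21 ± 0.31, with Het means of 649 and 77.2 CPM, and Lmna 2.48 ± 0.38. Kdm6b and Ralgds had Het means between those of WT and KO libraries at both stages, 366 CPM in thymus and 265 in naive cells for Kdm6b and 15.3 and 20.99 for Ralgds. Their interactions against Het were 0.61 ± 0.14 and 0.89 ± 0.16. Within a stage, 0 genes were called for Het minus WT in naive cells and 0 in thymus (edgeR). Genes with Het means between WT and KO were not counted, and an effect of gene dose was not tested. Of the 77 named genes called against WT, 18 were not called against Het libraries (adjusted p 0.0919 to 0.817, edgeR), and all 18 kept the sign of the difference. They were Alcam, Plxdc1, Kalrn, Zwilch, Eomes, Ect2, Nop58, Cd55, Ms4a4c, Abcg1, Dock5 and Bmf, the chaperone genes Hspd1, Hspa9 and Tcp1, and Rsad2, Irf9 and Oasl1, which are the 3 interferon stimulated genes called against WT.

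Memory cells of the spleen (CD44+ CD62L+, 4 WT and 4 KO libraries), in which 22.2% of genes were called between KO and WT (12.8% higher, 9.32% lower), give the same genes at a further mature stage. Atp8a2 rose there by 4.31 ± 0.13, Jup by 3.92 ± 0.22, Lmna by 2.71 ± 0.24, Ikzf2 by 2.39 ± 0.23 and Itgb3 by 1.96 ± 0.14. Racgap1 fell by 1.74 ± 0.11, Igfbp4 by 2.37 ± 0.32, Slc35g1 by 2.17 ± 0.22 and Stx1a by 1.11 ± 0.09. Other genes with a naive change were not called in memory cells, as Plxnd1 at 0.71 ± 0.39, Nr4a1 at 0.31 ± 0.19 and Ntrk3 at -0.38 ± 0.16 (adjusted p = 0.222, 0.293 and 0.0822, edgeR). Coro2a, raised in KO thymus, was at -0.25 ± 0.18 in memory cells (adjusted p = 0.362, edgeR).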

How the data were processed

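RNA of flow sorted cells was extracted with Trizol and sequenced as stranded mRNA libraries in 65-base single reads, per the labels' protocols. The authors deposited raw counts of reads per gene, made with TopHat2 2.1.0 and HTSeq 0.9.1 on GRCm38 (mm10), per the submitters' processing notes. Neither the strand setting nor the annotation release is named there, so reads of overlapping or antisense genes may not be told apart. Of 52636 genes, 19776 had at least 1 count. Names and positions are from GENCODE M21.

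Counts of all 35 libraries were fitted with edgeR 4.0.16 (R 4.3.3, limma 3.58.1): the default expression filter over the 9 groups, which left 10296 genes, TMM factors (0.927 to 1.07), robust quasi-likelihood F tests of 9 group means with 26 residual degrees of freedom, two-sided, and Benjamini-Hochberg adjustment over all tested genes at 0.05. Values after ± are standard errors. CPM values are TMM scaled. Fold changes of genes with few counts in a group depend on the fit and are not bounds. The code was tested on simulated data.

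Members and gene lists were chosen with earlier results of these data known. Named genes were 13 key genes, the 10 highest and 10 lowest called interactions and the 6 lowest adjusted p in each direction (mean log2 CPM of at least 1), up to 6 genes called with opposite signs, and up to 4 called members of each list. A result for 1 gene chosen by these rules is not reported here. Predicted genes, receptor segments and sex linked genes were left out of the choices by rank. Alternatives were RLE or mean log scaling, other filters, fits without robust estimates or with only the compared groups, sex or replicate number as a term, DESeq2 1.42.0, and leaving out libraries. Same-numbered libraries were not stated to share an animal.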

Additional observations from a re-analysis of the deposited data

Results flagged for a closer look

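Effects that differed between the stages by the test of the difference itself were 653 genes for KO minus WT and 496 for KO minus Het (edgeR, adjusted p under 0.05). The genes with opposite signs at the 2 stages and the lowest adjusted p were Racgap1 (interaction -2.42), Ntrk3 (-1.93), Pola1 (-1.04), Ralgds (1.40), Nr4a1 (1.83) and Kdm6b (1.01).

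Of 252 groups of 4 values of named genes, 11 (4.37%) held a library far from the other 3 by Dixon's criterion, a rate that chance gives in about 1 in 20 groups. Naive KO replicate 3, the library with the most effector transcripts, stood apart for Bhlhe40 (26.4 CPM), Cd44 (17.95 CPM) and Ntrk3 (15.5 CPM). Naive KO replicate 2 stood apart for Nop58 (118 CPM). Among naive WT libraries, replicate 1 stood apart for Tcf12 (707 CPM), replicate 3 for Notch3 (0.663 CPM) and replicate 4 for Alcam (6.39 CPM). Among KO thymus libraries, replicate 2 stood apart for Nr4a1 (28.5 CPM) and Rrp12 (81.4 CPM), and replicate 3 for Fnbp1l (9.68 CPM) and Gimap6 (8.37 CPM).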

How the results depend on the processing

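The count of 653 genes was 654 with RLE factors, 620 with mean log centring, 631 without the filter, 657 with a stricter one, 655 without robust estimates, 758 with only the compared libraries, 726 with sex as a term, 766 with DESeq2 and 461 to 628 with 1 library left out. Of the 653, 279 were called under every alternative. Without naive KO replicates 3 and 4 there were 446 genes, with 1240 in place of 1879 for KO minus WT in naive cells and 326 in place of 496 for the KO minus Het interaction. Of 77 called named genes, 61 were called under all 26 alternatives and 16 lost the call under at least 1, and no called gene changed direction. Cdkn2c and Cbl lost it only without naive KO replicates 3 and 4. The interaction of Dot1l, not called, was -0.0834 to 0.0229 with 1 library left out, above 0 only without thymic WT replicate 3. List counts moved by over 1.5 times in both directions. With only the compared libraries, 6 in place of 3 immediate early genes, 6 in place of 3 interferon stimulated genes and 5 in place of 3 genes of Polycomb repressive complex 2 were called. With sex as a term there were 5 immediate early genes, and with DESeq2 5 of these and 5 in place of 3 cholesterol genes. With the replicate number as a block, 9 in place of 5 chaperone genes, 5 cholesterol genes and 1 in place of 0 effector genes were called, and with a block within each genotype 10 chaperone, 6 immediate early (5 higher, 1 lower) and 5 cholesterol genes. Lists with at most 2 calls moved by 1 or 2 genes under some of these settings. With the replicate number as a block 794 genes were called, and 841 with a block within each genotype. Deviations of same-numbered libraries correlated at a mean r of 0.203 between naive KO and WT, -0.0729 between thymic KO and WT, 0.127 between the KO stages and 0.0749 between the WT stages, and WT replicate 3 differed in sex between the stages, so the numbers were not taken as a pairing. As a hint from the data and not the design, 4 of 4 naive KO libraries correlated best with their own number in naive WT and again in thymic KO, against 1 of 3 between thymic KO and WT and 2 of 3 between the WT stages, and the lowest correlation of a pair was 0.0817, 0.0542, -0.190 and -0.124 in these comparisons. Sex matched between the stages for every number of the KO and of the Het libraries, with replicate 3 female and the others male. Shared animals within a genotype are thus possible but not stated, and the main fit has no pairing. Depth limits genes with few counts in WT naive cells, such as Adamtsl2, Notch3, Zbtb16 and Bmf.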

Other observations

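Nucleotide and one-carbon synthesis genes, a list chosen after values were seen and so a description only, gave 11 of 24 members in the interaction, all lower, with a median of -0.47. In KO thymus 17 were higher and 0 lower, or 8 and 1 with mean log centring, and in naive cells 2 were higher and 8 lower, or 1 and 12. Of all tested genes 3.33% were lower in the interaction, 11.9% were higher and 6.77% lower in thymus, and 11.1% and 7.11% in naive cells. With mean log centring 886 and 1342 of 10296 genes were higher and lower in thymus, and 886 and 1612 in naive cells. Mthfd2, the gene of a mitochondrial folate enzyme, had an interaction of -1.34 ± 0.23 (thymus 0.70 ± 0.16, naive -0.65 ± 0.16). Mthfd1, its cytosolic counterpart, had -0.85 ± 0.13 (thymus 0.49 ± 0.10, naive -0.36 ± 0.09). Cad, Ctps, Gart, Atic and Phgdh, genes of pyrimidine, purine and serine synthesis, were also called higher in thymus and lower in naive cells.

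Histone lysine demethylase genes, chosen in the same way, gave 5 of 17 members in the interaction, all higher, or 4 with mean log centring. In KO thymus 0 were higher and 8 lower, and in naive cells 2 were higher and 1 lower. The shares of all tested genes within a stage are those given for the list before, and 3.01% were higher in the interaction. Beside Kdm5b and Kdm6b they were Kdm2b (0.73 ± 0.11), Kdm4a (0.39 ± 0.10) and Kdm5a (0.27 ± 0.08). Without thymic WT replicate 1 there were 3 in place of 5.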
